A study of Homo sapiens with 8 samples.

Results

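The zinc finger genes of chromosome 19 were examined for the poly(A) sites that neuroblastoma cells used in and around them. A gene was taken when GENCODE (release 44) annotated it as protein-coding on chromosome 19 with a name of ZNF followed by digits alone, which gave 240 of the 1391 protein-coding genes of this chromosome and of 19389 in the genome. The remaining 1151 protein-coding genes of chromosome 19 served as the comparison. All 240 translated reading frames held at least 1 match to the C2H2 zinc finger pattern, with a median of 12 and a highest number of 36, so that the names described the proteins.

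C2H2 zinc fingers are short protein loops held by a zinc ion, and a row of them reads DNA. Most of the chromosome 19 family also carries a KRAB domain, which recruits the corepressor TRIM28 and the histone methyltransferase SETDB1 and keeps retrotransposons silent. The genes arose by repeated tandem duplication and lie in clusters, and as a rule a single last exon encodes all fingers of a protein.

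The study asked whether inhibition of the transcriptional kinases CDK12 and CDK13 makes transcripts end early. Kelly cells, a MYCN-amplified human neuroblastoma line, and Kelly E9R cells, a line derived from them in which a spontaneous CDK12 mutation alters the cysteine that the covalent inhibitor THZ531 binds, were given THZ531 or the solvent DMSO for 6 h. The labels give 400 nM THZ531, whereas the study's methods name a lower dose for both lines. Each of the 4 groups (Kelly DMSO, Kelly THZ531, Kelly E9R DMSO and Kelly E9R THZ531) had 2 libraries of poly(A) 3′-sequencing, in which each read starts at the poly(A) tail. The authors merged the reads of all 8 libraries before they called peaks, and the deposited list has 0 columns of values per library. Treated and untreated cells therefore cannot be told apart below, no value has a replicate, the depth per library is unknown, and intervals cover counting error only. Genes are not replicates of each other, so shares and medians are given as a description with no test. Of the cells' lineage, 6 sympathoadrenal genes were looked at (HAND2, GATA3, ISL1, TH, DBH and CHGA). All 6 had a transcript end peak, with 39 to 78 fragments at the strongest, against 64.5% of all protein-coding genes. They were picked after the list had been seen and other markers are not reported here, so these values describe the 6 genes and are no test of the line.

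Of the 5208 poly(A) peaks on chromosome 19, 1323 lay within a ZNF gene or the 4 kb after it. After the removal of peaks before long A stretches, described under processing, 1279 of them were kept. Because some ZNF genes overlap, 96 of these peaks counted for more than 1 ZNF gene, which gave 1376 pairs of gene and peak. Each pair went to the first place that fitted: a transcript end (from 200 bp before to 600 bp after the end of an annotated transcript), the terminal exon, another exon, an intron, or the downstream 4 kb. By place, 311 peaks lay at transcript ends, 170 in terminal exons further upstream, 46 in other exons, 751 in introns and 98 downstream. In all, 230 ZNF genes had at least 1 peak and 10 had none.

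The sites at which the strongest ends lay are shown first, because the hexamer that the cleavage machinery reads is visible in them. The stretches below are reference sequence (GRCh38) on the strand of the gene, 5′ to 3′, at the strongest transcript end peak of the 5 ZNF genes with the highest −log10 q. Capitals mark the polyadenylation site (PAS) motif AATAAA. They lie at chr19:11950732-11950761 (forward strand) for ZNF700, chr19:37411149-37411178 (reverse) for ZNF569, chr19:58126245-58126274 (reverse) for ZNF329, chr19:57421902-57421931 (forward) for ZNF17 and chr19:34686369-34686398 (forward) for ZNF302.
ZNF700: atAATAAAatatcccattggttttatgtat
ZNF569: ttAATAAAagagtgaaagcaaatatgacag
ZNF329: gtAATAAAttaaaaagtgaagccaaaagga
ZNF17: tgAATAAAattctgttagtcatgtgttgct
ZNF302: ctAATAAAatcattttgtatatcatgaact

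At these 5 sites the motif started 41, 38, 27, 49 and 23 bases before the 3′ edge of the peak, in the same order. ZNF700 stood highest, with 36 fragments at the summit, a fold enrichment over the local background of 20.8 and a −log10 q of 42.8. ZNF569 had 35 fragments (−log10 q 36.7), ZNF329 had 28 (36.1), ZNF17 had 32 (34.3) and ZNF302 had 35 (34.2). All 5 encode rows of fingers, from 7 in ZNF302 to 18 in ZNF700, ZNF569 and ZNF17. The peaks of ZNF700 and ZNF17 also overlapped noncoding genes, and the peaks carry no strand, so their fragments cannot be assigned to the ZNF gene alone.

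A transcript end peak was found in 196 of 240 ZNF genes, 81.7% (95% Wilson interval 76.3 to 86.1%). In the other protein-coding genes of chromosome 19 the share was 62.4%, and 65.9% (62.7 to 69.2%) after their length classes had been weighted to those of the ZNF genes. The difference was 15.7 percentage points (9.87 to 21.6). By gene length, below 5 kb, 6 of 6 ZNF genes against 55.7% of the others had an end peak, between 20 and 30 kb the shares were 87.5% and 69.2%, and above 50 kb they were 75.8% and 71.3%. When only genes with a peak outside the transcript end windows were kept, an alternative chosen after seeing the data that does not use the end peaks themselves, the shares were 83.9% (177 of 211) and 83.7%. The excess at transcript ends was then 0.20 points, with an interval of −5.61 to 6.02.

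**Figure D1:**
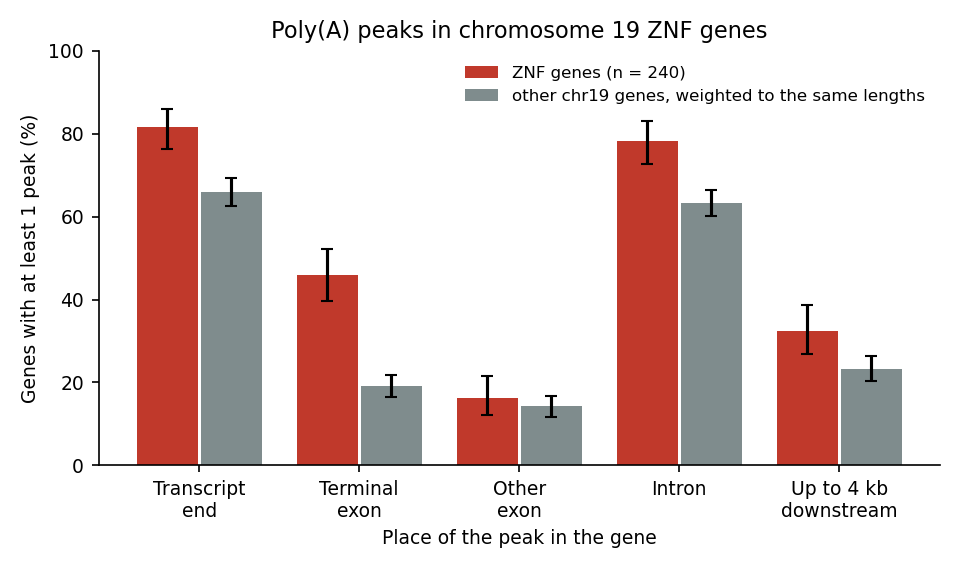
Share of genes (%, vertical axis) with at least 1 poly(A) peak at each place in the gene (horizontal axis), for 240 ZNF genes and for the other protein-coding genes of chromosome 19 weighted to the same gene lengths; error bars are 95% intervals of counting error. The ZNF share was 45.8% against 19.1% in the terminal exon and 81.7% against 65.9% at transcript ends, while the bars for other exons (16.3% and 14.2%) overlap within their intervals.

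Of the 240 genes, 111 had 1 end peak, 60 had 2, 21 had 3, 3 had 4 and 1 had 5. ZNF493 was the gene with 5, and ZNF555, ZNF568 and ZNF880 had 4 each (named after their values had been seen). The peaks fitted the annotation closely: 56.6% (51.0 to 62.0%) had their 3′ edge within 10 bp of an annotated transcript end, against 55.6% in the other genes. In 29 ZNF genes, an end peak lay before the terminal exon of the main transcript, in the window of a shorter annotated form. These 34 peaks made up 10.9% (7.93 to 14.9%) of end peaks, against 6.02% (4.69 to 7.71%) in the other genes. They had 5 to 34 fragments, and some overlapped another gene, lacked a motif or had A-rich sequence behind them. ZNF264 was an example, with 21 fragments at an early end near chr19:57194964 and 18 at its last end.

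Peaks at ZNF transcript ends carried a PAS motif often. The 12 hexamers used by the study (AATAAA and ATTAAA, with AAGAAA or AATAGA or AATACA or AATATA or AATGAA or ACTAAA or AGTAAA or CATAAA or GATAAA or TATAAA) were searched in the 100 bp before the 3′ edge of each peak. On the strand of the gene, 88.1% of the 311 end peaks held at least 1 (84.0 to 91.2%), and on the opposite strand in the mirror window 56.6% did (51.0 to 62.0%). In the other chromosome 19 genes the same shares were 77.5% and 42.3%, so the hexamers were more frequent around ZNF ends on both strands. A-rich sequence (a run of 6 A, or 7 A among 10 bases, within 50 bp after the peak, where oligo(dT) can also prime) followed 22.2% of ZNF end peaks and 7.89% of those of other genes. End peaks with a motif but without A-rich sequence made up 73.3% (68.1 to 77.9%) and 73.0% (70.1 to 75.7%), which differed by less than the intervals. AATAAA was found in 55.6% of ZNF end peaks and ATTAAA without it in 16.4%. AATAAA started 30 to 21 bases before the peak edge in about the same place as in other genes: windows of 5 bp held 20.6 and 18.0 matches per 100 peaks there, against 1.93 and 1.93 on the opposite strand.

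**Figure D2:**
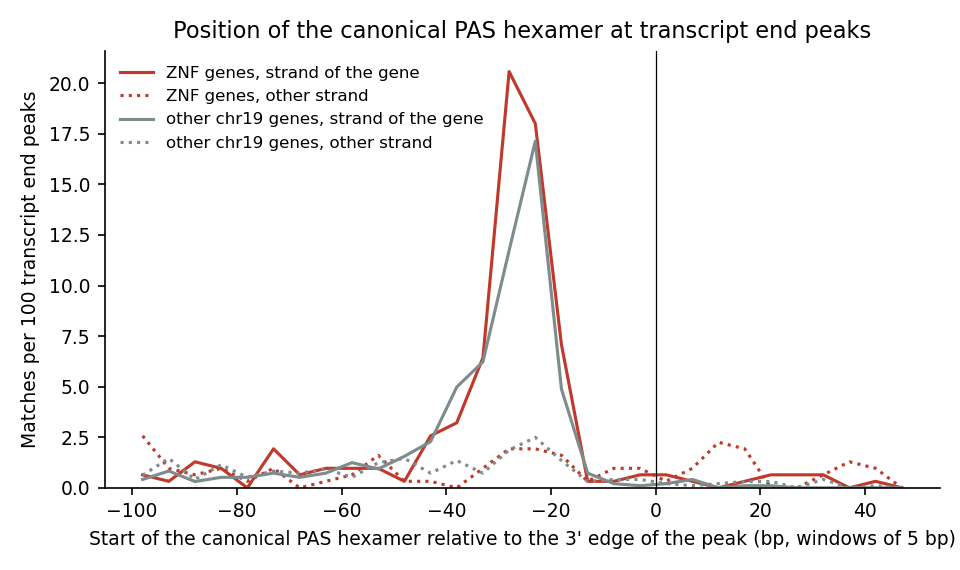
Start of the AATAAA hexamer relative to the 3′ edge of transcript end peaks (bp, windows of 5 bp) against the number of matches per 100 peaks, for 311 peaks of ZNF genes and 963 of other chromosome 19 genes, on the strand of the gene (solid) and on the other strand (dotted). The solid line of ZNF genes rises to 20.6 per 100 peaks between 30 and 26 bases before the edge, while the dotted lines stay below 3 over the whole window.

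At the median, the strongest end peaks of ZNF genes held fewer fragments than those of other genes. The strongest end peak of each of the 196 genes had a median of 17 fragments (quartiles 12 and 22, range 5 to 40), against 22 (14 and 30, range 4 to 77) in 718 other genes of the chromosome. No ZNF gene exceeded 40 fragments. The lower median held in each of the 7 length classes, with ZNF medians of 14 to 19 and medians of 20 to 24 in the others. In ZNF genes, 71.4% of the strongest end peaks reached a −log10 q of 10 (64.7 to 77.3%), against 78.8% (75.7 to 81.7%). The number of fragments is a property of the pool of libraries and is not a level per gene, since a long gene with several ends divides its fragments among them. The peak calling settings given by the study do not say whether reads at the same position were counted once. If they were, a height counts distinct read positions and is compressed at strong ends. Ribosomal protein genes of the chromosome had from 19 (RPS28) to 58 (RPS16) fragments, so heights are not read as expression.

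**Figure D3:**
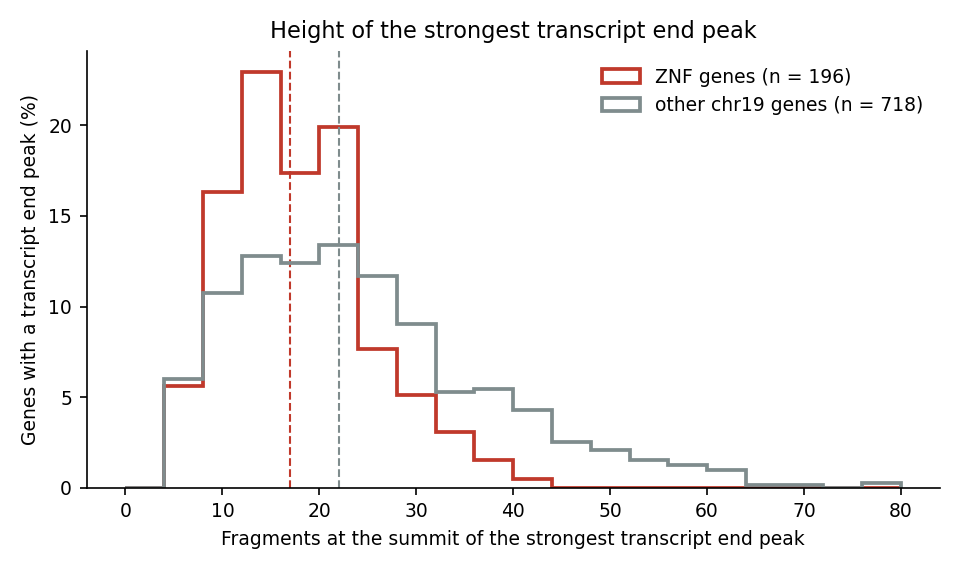
Fragments at the summit of the strongest transcript end peak (horizontal axis, bins of 4) against the percentage of genes with such a peak, for 196 ZNF genes and 718 other protein-coding genes of chromosome 19; dashed lines are medians. The ZNF genes have a median of 17 and reach 40, and the other genes have a median of 22 and reach 77.

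Tandem duplication raises the question of whether reads could be placed in a single copy. The study kept reads that mapped to up to 20 places, and the last 75 bases of each peak, the shortest read kept, were searched in the whole genome. An exact second copy existed for 1 of 481 peaks at ends and in terminal exons (0.21%, 0.037 to 1.17%). With the last 50 bases it was 11 of 481 (2.29%, 1.28 to 4.05%). Intronic peaks had an exact copy of 75 bases in 26 of 751 cases (3.46%), against 1.18% in the other genes of the chromosome. With the last 50 bases the intronic shares were 11.3% and 9.64%. Copies with mismatches were not searched.

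In gene length classes, ZNF genes stood furthest from the other genes of the chromosome in the terminal exon. At least 1 peak upstream of the transcript end windows lay in the terminal exon of 110 ZNF genes, 45.8% (39.6 to 52.2%). The share was 15.3% in all other genes of the chromosome and 19.1% (16.4 to 21.9%) after weighting to the same gene lengths, a difference of 26.7 points (19.9 to 33.5). The terminal exon of ZNF genes is long, however, with a median of 3.35 kb against 0.76 kb. In classes of terminal exon length instead of gene length, an alternative chosen after seeing the data, the comparison share rose to 42.8% and the difference was 3.02 points (−5.38 to 11.4). Against genes of other chromosomes, in gene length classes, it was 14.9 points (8.59 to 21.2), near the 14.4 at transcript ends and 15.2 in introns.

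Class by class, terminal exons of 0.5 to 1 kb held a peak in 1 of 5 ZNF genes (20%, 3.62 to 62.4%) and 8.01% of others, and those of 1 to 2 kb in 12.8% of ZNF genes (5 of 39) and 17.6% of others. At 2 to 4 kb the shares were 36.4% (40 of 110) and 39.6%. At 4 kb and more they were 75.3% (65.2 to 83.2%, 64 of 85) and 61.0% (48.3 to 72.4%). Across the 240 genes the number of terminal exon peaks rose with terminal exon length (Spearman's rho 0.48, across genes, a description) and not with the number of fingers (−0.10).

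**Figure D4:**
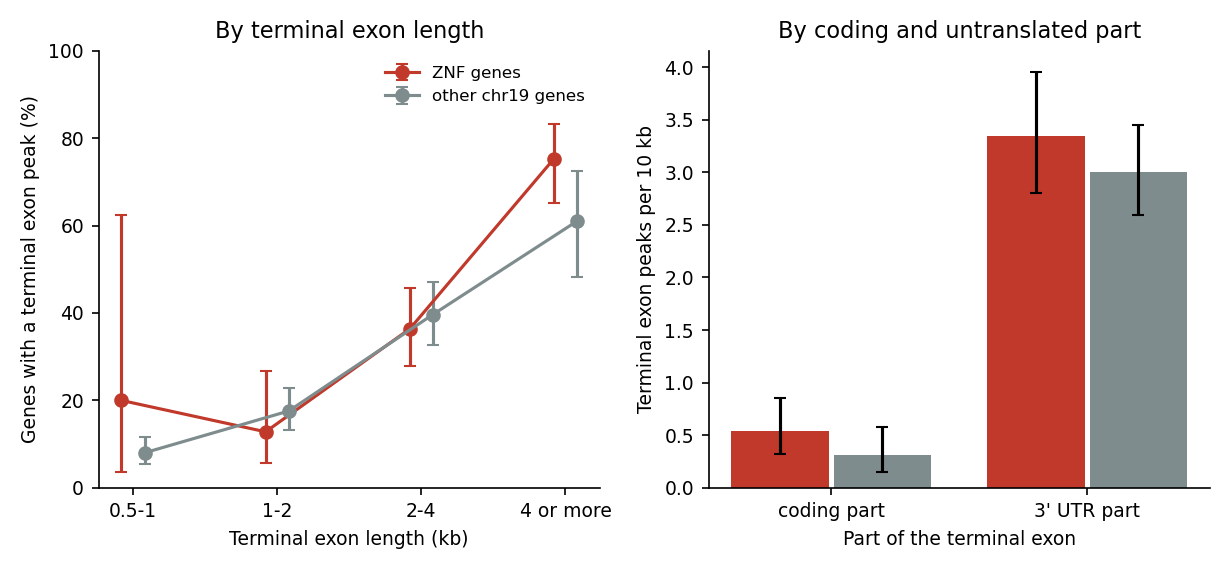
Left, share of genes with a terminal exon peak (%) by length of the terminal exon (kb, classes from 0.5 kb), for ZNF genes and other chromosome 19 genes, with 95% Wilson intervals; right, terminal exon peaks per 10 kb in the coding and the 3′ UTR part of the terminal exon, in the same colours, with 95% Poisson intervals. The shares are 36.4% and 39.6% at 2 to 4 kb and 75.3% and 61.0% from 4 kb, the class from 0.5 kb has only 5 ZNF genes, and the bars for the coding part (0.54 and 0.31 per 10 kb) are far below those for the 3′ UTR part (3.34 and 2.998).

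Of the 170 terminal exon peaks, 134 lay in the 3′ UTR part of the main transcript's terminal exon, 18 in its coding part and 18 outside that exon, in terminal exons of other transcripts. The coding part of ZNF terminal exons, in which the fingers are encoded, took up 332 kb outside the transcript end windows and the 3′ UTR part 401 kb. The coding part held 18 peaks, 0.54 per 10 kb (0.32 to 0.86), and the 3′ UTR part 134, 3.34 per 10 kb (2.80 to 3.96). In the other genes the 2 densities were 0.31 and 2.998. With a motif but without A-rich sequence after the peak, the ZNF counts were 6 and 81.

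PAS hexamers were not rare in the coding part. They occurred 5.31 times per kb there in ZNF genes and 1.14 times per kb in other genes, and 7.48 and 3.12 times per kb in the 3′ UTR part. TATAAA was as frequent in coding sequence of ZNF genes (0.80 per kb) as in their 3′ UTR (0.77), whereas AATAAA was scarcer (0.28 against 0.99). Over the whole coding sequences, 298 TATAAA were found, of which 275 lay in the reading frame, where they spell tyrosine and lysine. Of all 298, 121 directly followed the codons of glutamate, lysine and proline that link neighbouring fingers. AATGAA (asparagine and glutamate in frame) occurred 290 times, 262 in frame and 190 directly after a codon of cysteine, a zinc ligand when it belongs to a finger.

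With those inside transcript end windows included, 24 ZNF peaks had their 3′ edge in coding sequence. The first motif in the order of the list was AATAAA for 9 of them, and 5 had no motif. The stretches below show 4 of these sites, chosen after their values had been seen to show PAS hexamers within coding sequence, with the motif in capitals. In ZNF568 the hexamer lies in frame inside a match to the finger pattern, in ZNF91 and ZNF43 in frame but outside such a match, and in ZNF480 out of frame and outside a match. They lie at chr19:52321689-52321718 (forward strand) for ZNF480, chr19:36950328-36950357 (forward) for ZNF568, chr19:23362534-23362563 (reverse) for ZNF91 and chr19:21809700-21809729 (reverse) for ZNF43.
ZNF480: gtAATAAAtggatgtaatcaagttgaaaac
ZNF568: gtAATAAAtgtggaaaagctttctctcaat
ZNF91: atAATAAActtaaccagtgtctcacaactg
ZNF43: gaTATAAAaactgtgaacataaaaatgtac

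The coding peak of ZNF480 was the strongest, with 24 fragments and a −log10 q of 22.97, and it overlapped another gene. The other coding sites printed were low: ZNF43 had 12 fragments (−log10 q 7.39), ZNF91 had 10 (5.52) and ZNF568 had 9 (5.53). ZNF43 had A-rich sequence behind the peak and the other 3 did not.

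Several long terminal exons held a series of sites. ZNF431 had the longest terminal exon of the family (13.4 kb) and most terminal exon peaks, 6, with 3 end peaks of 13 to 17 fragments. Its strongest terminal exon peaks had 24 and 25 fragments, above all 3 of its end peaks. ZNF568, a KRAB protein whose mouse counterpart represses a placental transcript of Igf2, had 5, of which 4 lay in exons of other transcripts than the main one and all 5 overlapped another gene. ZNF264 (terminal exon 11.5 kb) and ZNF320 (5.80 kb) had 4 each, and ZNF134 (4.57 kb) had 3. In ZNF320 a site inside the 3′ UTR had 27 fragments against 19 at the annotated end.

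Intronic peaks were found in 188 ZNF genes, 78.3% (72.7 to 83.1%). The share was 48% in all other genes of the chromosome and 63.4% (60.2 to 66.5%) at matched lengths, a difference of 14.96 points (8.89 to 21.0). Among genes with a transcript end peak, however, it was 79.6% in ZNF genes and 80.99% in the others, a difference of −1.40 points (−7.66 to 4.86). Among genes with a peak outside introns it was 1.89 points (−4.01 to 7.78), and it was 2.60 points (−4.50 to 9.70) when peaks that overlap another gene were left out.

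Per length of intron, ZNF genes held 11.6 peaks per 100 kb (10.8 to 12.5). The other genes held 8.63, with each length class weighted by the ZNF intron bases in it. With a motif but without A-rich sequence the densities were 3.03 (2.62 to 3.48) and 2.02 per 100 kb. Without peaks that overlap another gene, the ZNF density was 6.67 per 100 kb (6.06 to 7.33) and that of the other genes, with the same weights, 6.45. Intron bases under other genes stayed in the ZNF denominator, so this density is lowered by construction. It does not measure the parts of introns that are free of other genes. Of the 751 intronic peaks, 319 (42.5%, 39.0 to 46.0%) overlapped another gene, which lay on the opposite strand for 174 and was another ZNF gene for 102. In the other genes 26.2% did.

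Most intronic peaks of ZNF genes lay away from annotated transcript ends, which follows in part from the ranking of places. Peaks in the window of an end of the gene's own basic transcripts had already gone to the transcript end class. In a check added after seeing the data, 61 of 751 intronic peaks (8.12%, 6.38 to 10.3%) lay within 50 bp of any annotated transcript end on either strand, against 9.18% in the other genes. A PAS motif was found before 55.3% (51.7 to 58.8%), against 40.6% (37.2 to 44.2%) on the opposite strand, and A-rich sequence behind 61.0% (57.4 to 64.4%), against 24.2% on the opposite strand. Intronic peaks of the other genes had a motif on the strand of the gene in 43.2% (41.0 to 45.4%). A-rich sequence followed 59.6% of them (57.4 to 61.8%), near the ZNF share. A motif without A-rich sequence was seen in 196 peaks, 26.1% (23.1 to 29.4%), which was close to the 23.1% (21.3 to 25%) of the other genes. It was below the 73.3% at ZNF transcript ends. Intronic peaks had a median of 10 fragments in both groups of genes.

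Of the 501 peaks that lay in introns of the main transcript, 232 were in the first intron, 46.3% (42.0 to 50.7%), although it made up 37.1% of the intron bases. In the other genes 28.3% (26.2 to 30.5%) of the peaks and 28.1% of the bases were in the first intron. Peaks that overlap another gene or precede A-rich sequence are included, and whether the excess remains without them was not tested. Longer ZNF genes held more intronic peaks (Spearman's rho 0.61 over 240 genes, against 0.59 over 1151 others, a description across genes of the same pool of libraries).

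**Figure D5:**
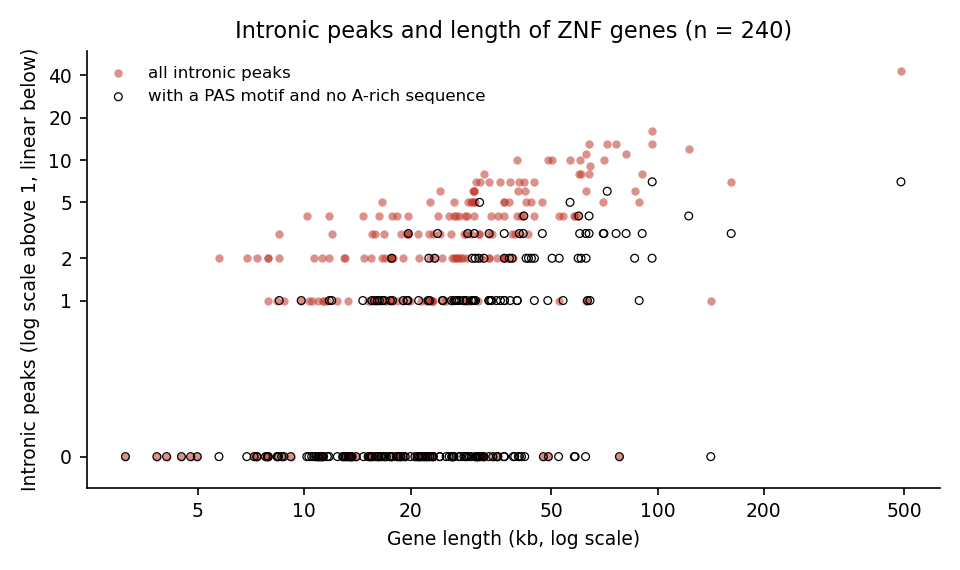
Gene length (kb, log scale) against the number of intronic poly(A) peaks (log scale above 1, linear below) for the 240 ZNF genes; filled points are all intronic peaks and open points those with a PAS motif and no A-rich sequence. The counts rise with length up to the 43 intronic peaks, 7 of them with a motif but without A-rich sequence, of ZNF536 at 489 kb.

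ZNF536, a repressor of neuronal differentiation genes and the longest ZNF gene of the chromosome (489 kb), had 43 intronic peaks of 4 to 19 fragments each. They corresponded to 8.95 per 100 kb of intron (6.48 to 12.1), which was no higher than in the family as a whole. ZNF254 had 16, and ZNF235, ZNF565 and ZNF730 had 13 each. ZNF565 illustrates the overlap: its strongest motif-bearing intronic peak (38 fragments) is also the transcript end peak of ZNF146, which lies on the opposite strand inside it.

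Intronic sites with a motif but without A-rich sequence are shown for the genes in which the strongest of them overlapped no other gene, to set beside the transcript ends above. They lie at chr19:23117604-23117633 for ZNF730, chr19:37329695-37329724 for ZNF875 and chr19:30246333-30246362 for ZNF536, all on the forward strand, with the motif in capitals.
ZNF730: taATTAAAgaatgattctaaaattgtagag
ZNF875: ttATTAAAaatacacaaatattatgtttcc
ZNF536: aaAATAAAagacggtaggaatcagagaggg

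ZNF730 had no transcript end peak at all, and its intronic site had 37 fragments (−log10 q 35.8), within the range of the strongest ends of the family (up to 40). ZNF875 had 27 fragments at the intronic site (21.7) and 21 at its strongest transcript end (22.9). ZNF536 had 14 at the intronic site (17.1) and 23 at its strongest end (31.7). Other intronic peaks among the strongest belonged to neighbours: a peak of 31 fragments inside the annotated spans of both ZNF701 and ZNF808 ended at position 52564464, where a transcript of ZNF808 outside the basic set ends. It counted as intronic for both genes, and 91 of the 751 intronic peaks (12.1%, 9.97 to 14.6%) likewise lay in the span of a ZNF gene but in none of its basic transcripts. In the other genes of the chromosome 9.49% did (8.27 to 10.9%).

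The genes with a known role were examined next. ZNF91 and ZNF93 repress the SVA and L1 families of retrotransposons. ZNF91 had 3 end peaks, the strongest with 15 fragments, 1 terminal exon peak and 8 intronic peaks. ZNF93 had 3 end peaks of at most 12 fragments and 1 intronic peak, and all 3 of its ends lay outside the main terminal exon. ZNF274, which binds the 3′ coding ends of other ZNF genes and brings SETDB1 to them, had 1 end peak of 19 fragments and 7 intronic peaks. ZNF473, a component of histone pre-mRNA 3′ end processing, had 3 end peaks (17 fragments at the strongest), all of which overlapped a noncoding gene.

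ZNF382 had the strongest end of this group (32 fragments, −log10 q 32.8), and ZNF146, which consists of fingers without a KRAB domain, the highest number of fragments, 38, with 3 further peaks in its terminal exon. ZNF808, needed for development of the pancreas, had a transcript end peak of 21 fragments that also lay in the span of ZNF701. ZNF331 had 3 end peaks, 19 fragments at the strongest, and a terminal exon peak of 24. All 10 genes of this group had an end peak, as did 81.7% of all ZNF genes. ZNF524, the shortest ZNF gene (3.12 kb), had 1 end peak of 18 fragments and no other.

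The 44 ZNF genes without an end peak fell into several kinds. A terminal exon peak was present in 20 of them, a downstream peak and no terminal exon peak in 4, intronic or other exon peaks alone in 10, and no peak in 10. The 3 longest without any peak were ZNF90 (49.1 kb), ZNF665 (34.2 kb) and ZNF560 (32.3 kb). A gene without a peak was not detected in this pool, which does not show that it was not transcribed. Downstream peaks were present in 78 ZNF genes (32.5%), against 23.9% of the other genes, and 64.3% of the 98 peaks overlapped another gene, as did 76.8% of the 366 downstream peaks of other genes.

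Where the genes lie along the chromosome was described by joining genes less than 500 kb apart, which gave 20 clusters, 8 of them with at least 10 members and 218 members in all. The cluster next to the centromere, from ZNF101 to ZNF254 (chr19:19668796-24129968), had the lowest share of genes with an end peak among these 8, 24 of 37 (64.9%, 48.8 to 78.2%), and 4 of the 10 genes without any peak. The cluster from ZNF575 to ZNF180 (chr19:43525497-44500524) had the highest, 22 of 23 (95.7%, 79.0 to 99.2%). The intervals of these 2 clusters do not overlap, but they are the extremes of 8 and were picked for their values. Exact 75-base copies were found for 0 of 80 end and terminal exon peaks of the first cluster (a count of 0 allows up to 3.75%). At the end of the long arm, the cluster from ZNF264 to ZNF446 had 34 of 41 genes with an end peak and a median of 19.5 fragments at the strongest end.

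The proteins through which KRAB zinc fingers act were considered beside them. All 18 genes of this list had a transcript end peak, with 17 fragments (UHRF1) to 79 (CHD4) at the strongest, and 15 had an intronic peak. Of all protein-coding genes, 64.5% had an end peak and 57.4% an intronic peak. These shares are not matched for length, and the 18 genes ranged from 4.46 kb (DAXX) to 281 kb (ATRX). Beside the genes named in this paragraph, the list held ATF7IP, CBX1, CBX3, CHD3, TASOR, MPHOSPH8, PPHLN1 and MORC2. TRIM28, itself on chromosome 19, had 60 fragments and SETDB1 56, above all ZNF genes. CHD4, HDAC2 (56) and HDAC1 (45) belong to the NuRD deacetylase complex. CBX5, a heterochromatin protein, had 37, and the methyltransferase DNMT1 had 42.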

How the data were processed

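Poly(A) 3′-sequencing libraries (QuantSeq 3′ REV) of Kelly and Kelly E9R cells, 4 groups of 2, were processed by the authors: reads were trimmed with BBDuk (shortest read 75 bases), mapped with STAR 2.5.1b to GRCh38 with up to 20 places per read, merged over all libraries, and peaks were called with MACS2 2.1.1 with reads extended to 100 bp. The deposited list of 153624 peaks holds a fold enrichment, which is a ratio to the local background, the summit's −log10 p and −log10 q, and a whole-number score, all as the authors deposited them. It has no strand and 0 columns per library, so the depth of each library is unknown, and the score was not used here. The summit's fragments were recovered as the whole number that satisfies the deposited fold and −log10 p together, which succeeded for 100% of peaks within 0.001. Whether duplicate reads entered this number is not stated by the study.

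Peaks were assigned with GENCODE release 44 (basic transcripts without readthrough transcripts), whereas the study used an older, filtered release. All 240 ZNF genes had a basic transcript. An overlap of at least 1 bp counted. Pairs of gene and peak with 25 A (at most 3 mismatches) within 50 bp after the peak and no motif before it were removed (52 pairs of ZNF genes). Other genes were averaged in length classes with edges at 5, 10, 15, 20, 30 and 50 kb. For shares the weights were the ZNF genes in each class. For intronic densities they were the ZNF intron bases in each, 69.4% of which lay in classes of 30 kb and more. The main transcript is the Ensembl canonical one. Shares carry 95% Wilson intervals, except that length-weighted comparison shares carry 95% normal intervals from the variance within length classes. Densities carry exact Poisson intervals, and differences the 2 intervals combined in quadrature. Classification, the recovery of fragments and the search for motifs and A-rich sequence were tested on simulated data. The copy search was not tested in this way. Python 3.11.15, numpy 2.4.6, pandas 2.3.3, scipy 1.17.1 and biopython 1.88 were used.

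Genes were named by rule: the 5 with the highest −log10 q at an end, the 5 with most terminal exon peaks, most intronic peaks and most intronic peaks that have a motif but lack A-rich sequence (ties by name), the longest and shortest, the 3 longest without a peak, 10 genes with a known role and 18 partner genes. Genes named outside it are marked in the text. The members and lists were chosen with earlier results of these data known.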

Additional observations from a re-analysis of the deposited data

How the results depend on the processing

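Of 88 recomputed values, 65 stayed within the interval of the value reported, 22 left it and 1 changed sign. The sign changed for the difference in intronic share, which was −1.40 points among genes with a transcript end peak. Without peaks that overlap another gene, the differences in share were 8.50 points at transcript ends, 13.8 in terminal exons and 2.60 in introns, the intronic density was 6.67 per 100 kb, and 0% of end and terminal exon peaks had an exact copy. On the canonical transcript alone, the end difference was 9.01 points, the intronic density 12.5 per 100 kb, the motif share at ends 91.7% and the share of intronic peaks that have a motif but lack A-rich sequence 29.9%. The intronic density was 8.81 per 100 kb with a −log10 q of at least 5, 6.41 with a motif and 3.03 with a motif but without A-rich sequence, which also gave 19.4 points in terminal exons. Against other chromosomes the terminal exon difference was 14.9 points. A window of −100 to +200 bp gave 0% copies, and the last 50 bases 2.29%. Of the alternatives chosen after seeing the data, terminal exon length classes gave 3.02 points, genes with any peak 0.20 points at ends and 1.37 in introns (a filter that counts the same peaks), genes with a peak outside end windows 0.20 points at ends, genes with a peak outside introns 1.89 in introns, and intronic peaks away from annotated ends 10.7 per 100 kb. Fewer peaks or genes enter most of these by construction. For the other settings, including the comparison with other chromosomes, the cause was not tested.

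Leaving out replicates was not possible, as the libraries were pooled. No paired analysis was possible because the list has no column per library. A peak that overlaps several genes cannot be assigned by strand, and priming at genomic A stretches and cleavage sites cannot be told apart where a motif and A-rich sequence occur together.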

Other observations

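Zinc finger genes of chromosome 19 with other names had terminal exon peaks about as often as the ZNF genes (45.8%). Of 25 such genes (names beginning with ZFP, ZSCAN, ZIM, ZIK, ZBTB, ZKSCAN or PEG3, and ZNF names with a letter), 17 had a transcript end peak (68.0%, 48.4 to 82.8%), 11 a terminal exon peak (44%, 26.7 to 62.9%) and 16 an intronic peak (64%, 44.5 to 79.8%). Their terminal exons had a median of 3.13 kb, near the 3.35 kb of the ZNF genes, and the remaining 1126 genes, with a median of 0.75 kb, had a terminal exon peak in 14.7% (12.7 to 16.8%). At ends and in introns the shares of the 25 genes lay between those of ZNF genes (81.7 and 78.3%) and of the remaining genes (62.3 and 47.6%). Their intervals are wide, however, and lengths were not matched (median 23.6 kb in the 25 genes and 13.2 kb in the remaining genes).

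The 6 genes with a letter after the digits, which the name rule leaves out, all had an end peak, as did 81.7% of the ZNF genes and 62.4% of the other genes of the chromosome. ZNF585A and ZNF585B, a neighbouring pair, had 17 and 10 fragments at the strongest end, and ZNF780A and ZNF780B had 11 and 17, with 2 terminal exon peaks each. ZNF324B had 23 fragments and ZNF587B 17.

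Among the larger clusters, and picked for their values, the ZNF genes from ZNF565 to ZNF573 had terminal exon peaks in 16 of 24 genes (66.7%) and 13.6 intronic peaks per 100 kb (11.4 to 16.1), and those from ZNF653 to ZNF791 had them in 8 of 25 (32.0%) and 9.86 per 100 kb (7.48 to 12.7).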
